A study of Mus musculus with 6 samples.

Results

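The genes described here are 40 cell cycle and DNA replication genes. They were chosen by name from textbook function, with earlier results of these data known. Their values were read as the rows with those gene symbols in 6 RNA sequencing libraries of the embryonic mouse lower jaw. All 40 members were found, each on 1 row, among 21827 listed genes. They were divided into 23 genes of G1/S and replication, 15 genes of G2/M, and 2 genes of CDK inhibitors (Cdkn1b and Cdkn2c), which were kept apart. All 40 reached 1 TPM (a transcript level scaled for length and library total) in at least 3 of the 6 libraries, so that none was lost to the filter on low values.

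Each library came from the distal mandible of a single embryo at E10.75 (embryonic day). Under the mutant label the genotype was Msx1f/f;Msx2f/f;Rosa26mTmG/+;Hand2-Cre, and under the control label Msx1f/+;Msx2f/f;Rosa26mTmG/+;Hand2-Cre, with 1 embryo of each in each of 3 litters. Both labels thus carry Hand2-Cre, the Rosa26mTmG reporter that turns recombined cells green, and floxed Msx2 on both copies, and neither is an embryo with intact Msx genes. Green tissue was dissected rather than sorted as cells, so that cells in which Hand2-Cre was never active, among them surface epithelium and blood, remain in the sample.

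A dividing cell passes from G1 through DNA replication (S phase) and G2 into mitosis (M), driven by cyclins that switch on cyclin-dependent kinases (CDKs). The D-type and E-type cyclins release E2F transcription factors from the RB proteins, and E2F in turn supplies the transcripts for origin licensing, the MCM helicase and nucleotide synthesis. Later in the cycle, A-type and B-type cyclins with Cdk1, the Polo and Aurora kinases and the spindle checkpoint carry out mitosis, and their transcripts peak in G2 and M, largely through promoters that hold CCAAT boxes and a short element called the CHR. Outgrowth of the mandibular arch depends on proliferation of neural crest mesenchyme, for which Msx genes are known as regulators.

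Promoters of members from both phases are shown because the elements named above were present in both classes, in different shares that were not tested. RefSeq promoters (GRCm38.p6) were found for 33 of the 40 members. Within 250 bases upstream of the start, on either strand, CCAAT was found in 12 of 13 G2/M members (92.3%), 11 of 18 G1/S and replication members (61.1%) as well as 37.5% of all 27025 genes in the promoter table and 41.3% of its 9655 tested genes. A CHR, searched as TTTGAA or TTCGAA, was found in 6 of 13 G2/M members (46.2%), 3 of 18 G1/S and replication members (16.7%), 19.6% of all genes and 14.9% of tested genes. An E2F form, searched as TTTCGCGC, TTTGGCGC, TTTCCCGC or TTTGGCGG, was found in 1 of 13 G2/M members (7.69%), 5 of 18 G1/S and replication members (27.8%), 2.26% of all genes and 4.37% of tested genes. The E2F forms can overlap one another, a gene with several starts counted once if any start held the motif, and a match is a description of letters, not of a bound site.

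The stretches directly upstream of the RefSeq start of 4 G2/M and 2 replication members follow, 5′ to 3′ on the strand of the gene, with CCAAT (or ATTGG, its complement), the CHR and E2F forms in capitals; these genes were picked after the matches were seen. They lie on the minus strand at chr10:69352913-69353012 (Cdk1), chr4:118437344-118437443 (Cdc20), chr11:99024190-99024289 (Top2a), chr9:70421555-70421654 (Ccnb2), chr1:128359706-128359805 (Mcm6) and chr1:20820313-20820412 (Mcm3).
Cdk1: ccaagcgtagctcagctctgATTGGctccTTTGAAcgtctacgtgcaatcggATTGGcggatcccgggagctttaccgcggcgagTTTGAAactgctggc
Cdc20: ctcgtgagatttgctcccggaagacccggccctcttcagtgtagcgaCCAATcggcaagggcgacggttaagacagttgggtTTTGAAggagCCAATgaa
Top2a: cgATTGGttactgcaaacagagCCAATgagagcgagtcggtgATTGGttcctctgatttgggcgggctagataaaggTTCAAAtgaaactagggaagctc
Ccnb2: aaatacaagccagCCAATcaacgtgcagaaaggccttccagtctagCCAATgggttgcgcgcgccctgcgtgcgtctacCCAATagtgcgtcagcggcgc
Mcm6: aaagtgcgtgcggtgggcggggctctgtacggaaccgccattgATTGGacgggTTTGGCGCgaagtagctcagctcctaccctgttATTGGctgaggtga
Mcm3: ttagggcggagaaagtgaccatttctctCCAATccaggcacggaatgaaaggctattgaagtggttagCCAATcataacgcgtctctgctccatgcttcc
In GENCODE M21 the gene starts farther upstream for Cdk1 and Cdc20, so that the last 26 bases of the Cdk1 window, with its second CHR, and the last 9 of the Cdc20 window, with its second CCAAT box, lie in an annotated exon. In these windows of 100 bases Cdk1 holds 2 CHR matches beside 2 CCAAT boxes, Cdc20 1 beside 2, Top2a 1 CHR (as TTCAAA, the complement) beside 3, and Ccnb2 3 CCAAT boxes with no CHR inside the 100 bases, although 1 lies farther upstream. Mcm6 holds the E2F form TTTGGCGC between 2 CCAAT boxes, and Mcm3 holds 2 CCAAT boxes alone.

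Msx1, the floxed homeobox gene that distinguishes the labels, went against them. Its TPM under the mutant and control labels were 1.90 and 84.1 (litter 1), 78.8 and 2.61 (litter 2), and 73.3 and 1.99 (litter 3). The order in litters 2 and 3 is thus opposite to that in litter 1, and 4 of 6 libraries go against their label. Each labelled group therefore holds libraries with low and with high Msx1, and its mean Msx1 was 51.3 ± 42.9 TPM under the mutant label and 29.6 ± 47.2 TPM under the control label (SD, n = 3 each). Every labelled difference below compares groups mixed in this way. The authors' deposited table, in which Msx1 was at -5.19, does not have the difference that these labelled groups give. For Ccnb2 and Ccnd2, its 2 members with the smallest p, it gave 0.27 and -0.15, against -0.13 and -0.04 by the labels. The differences of low minus high Msx1 library in litters 1, 2 and 3 were 0.21, 0.22 and 0.37, and -0.28, -0.07 and -0.10. That table and the within-litter differences below are therefore not read as independent of each other. Whether labels or files were exchanged cannot be told apart here. Results below are therefore given by the labels, with a test, and within each litter as the library with Msx1 under 10 TPM against its littermate with Msx1 over 50 TPM, as values without a test, since a level of Msx1 assigns no genotype. The libraries with low Msx1 are those labelled mutant in litter 1 and labelled control in litters 2 and 3.

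Defining genes of distal arch mesenchyme were present in every library, with Hand2 at 210.0 to 261 TPM, Dlx5 at 204 to 266 TPM and Prrx1 at 139.5 to 154.5 TPM (TPM levels throughout). Of the other cell types, markers of epithelium (Epcam, 16.8 to 22.2 TPM) and endothelium (Cdh5, 25.1 to 29.1 TPM) were present, whereas Myog of muscle (0 to 0.326 TPM) and Foxd3 of glia (0 to 0.225 TPM) were near 0. The 7 red blood cell markers made up 2.84% of the listed TPM in the mutant-labelled library of litter 1, against 0.895% to 1.23% elsewhere. Mitochondrial transcripts made up 8.03% in the control-labelled library of litter 1, against 6.02% to 6.51% elsewhere. The number of reads behind each TPM value is unknown.

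The 40 members were abundant and steady. Of them, 38 lay in the upper 50% of the 12152 tested genes by mean TPM and 19 in the top 10%. In 31 members the highest of the 6 libraries was less than 1.3 times the lowest, and in 37 less than 1.5 times. The exceptions to the latter were Tyms (1.76 times), Cdkn2c (1.57 times) and Ccnb2 (1.56 times). Across the 39 members with a mean of at least 5 TPM, the median coefficient of variation over the 6 libraries was 7.98%, and 82.1% of them were below 10%. Among all 7256 genes in the same range of means (8.07 to 351 TPM), the median was 10.84%, and 43.3% were below 10%. Those genes share the range but were not matched to the members in level within it, so the part of abundance in this contrast was not tested. The 6 genes of distal arch mesenchyme had a median of 9.03%.

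**Figure D1:**
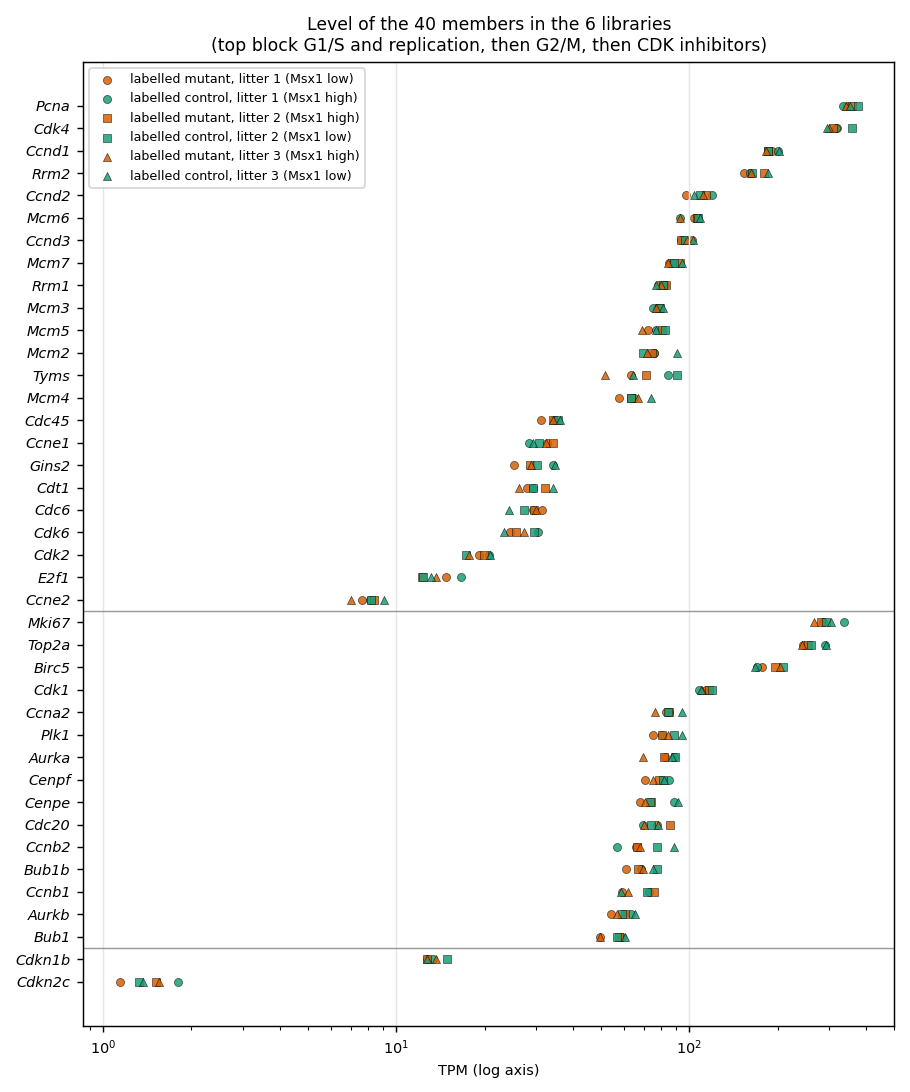
TPM of each of the 40 members (rows, log axis) in the 6 libraries; colour gives the label, symbol the litter, and the legend says which libraries had low or high Msx1. Points of a gene lie close together for most genes, from Cdkn2c at 1.14 to 1.79 TPM up to Pcna at 333 to 375 TPM, and Tyms spans the widest range of the abundant genes.

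Among the G1 regulators, the D-type cyclins and their kinases were unequal in level. For this gene and those below, TPM are given as labelled mutant and labelled control of each litter in turn. Ccnd1, which couples growth signals to G1, was at 191 and 201 TPM in litter 1, 186 and 186 TPM in litter 2, and 183 and 202 TPM in litter 3. Its level exceeded that of Ccnd2 in all 6 libraries, by 1.63 to 1.96 times. Ccnd2, the second D-type cyclin, was at 97.6 and 119 TPM, 114 and 109 TPM, and 111 and 104 TPM, and Ccnd3 was at 93.6 to 103 TPM. Their ratio was 0.955 to 1.27, so that the order of Ccnd2 and Ccnd3 was not the same in all libraries. Cdk4, a partner kinase of the D-type cyclins, was at 320 and 317 TPM, 309 and 360 TPM, and 299 and 295 TPM. The level of Cdk4 was 10.4 to 13.1 times that of Cdk6, the other such kinase, which was at 23.4 to 30.4 TPM.

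The E-type cyclins and Cdk2, which start S phase, had means below those of the D-type cyclins and Cdk4, and Ccne1 lay near Cdk6. Ccne1 was at 32.7 and 28.3 TPM in litter 1, 34.3 and 30.6 TPM in litter 2, and 32.5 and 29.2 TPM in litter 3. All 3 libraries labelled mutant were higher than all 3 labelled control for Ccne1, in contrast to most members. Ccne2 was at 6.99 to 9.05 TPM, which put Ccne1 at 3.22 to 4.64 times its level. Cdk2 was at 19.1 and 20.7 TPM, 19.9 and 17.2 TPM, and 17.7 and 20.8 TPM, without a consistent order of the labels. E2f1, an activating E2F gene, was at 12.2 to 16.7 TPM.

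The 6 genes of the MCM2-7 helicase ring, whose proteins assemble in equal numbers, were also close in transcript level. In every library Mcm6 was the highest and Mcm4 the lowest, with ratios between them of 1.40 to 1.80. Mcm6 was at 104 and 92.6 TPM in litter 1, 106 and 107 TPM in litter 2, and 93.2 and 109 TPM in litter 3. Mcm7 was at 85.2 and 88.2 TPM, 92.9 and 88.7 TPM, and 84.8 and 94.3 TPM. Both spanned similar ranges under the 2 labels. Mcm3 had the smallest coefficient of variation of all members, 2.79%, with 77.3 and 75.0 TPM, 78.5 and 79.4 TPM, and 77.0 and 81.3 TPM. The licensing factors Cdc6 and Cdt1, at 24.2 to 31.3 TPM and 26.2 to 34.4 TPM, and the helicase activators Cdc45 and Gins2, at 31.2 to 36.1 TPM and 25.2 to 34.7 TPM, lay below every Mcm gene.

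Among genes of the replication fork and nucleotide supply, Pcna, the sliding clamp of the DNA polymerases, had the highest mean of the 40 members. It was at 346 and 333 TPM in litter 1, 359 and 375 TPM in litter 2, and 343 and 353 TPM in litter 3. The subunits of ribonucleotide reductase differed in level. Rrm2, the regulated small subunit, was at 154 and 161 TPM, 179 and 164 TPM, and 163 and 185 TPM, which was 1.95 to 2.40 times the level of Rrm1. Rrm1, the large subunit, was almost constant, at 77.9 and 82.7 TPM, 83.2 and 81.1 TPM, and 80.2 and 77.2 TPM. Tyms, which makes thymidylate, varied most of the 40 members, with a coefficient of variation of 20.6%. It was at 63.0 and 84.4 TPM in litter 1, 71.0 and 90.5 TPM in litter 2, and 51.3 and 64.1 TPM in litter 3. The library labelled mutant was the lower of the littermates in all 3 litters for Tyms, although the labelled groups overlapped.

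Among the mitotic cyclins and their kinase, Cdk1 was the most abundant and the steadiest, at 114 and 108 TPM in litter 1, 116 and 119 TPM in litter 2, and 110.2 and 109 TPM in litter 3. Its level was 5.22 to 6.93 times that of Cdk2. Ccna2, the cyclin of S phase and G2, was at 83.3 and 85.02 TPM, 85.03 and 84.7 TPM, and 76.5 and 94.1 TPM. The B-type cyclins, which take cells into mitosis, differed from each other in pattern. Ccnb1 was at 58.8 and 72.7 TPM, 75.7 and 71.6 TPM, and 61.7 and 58.3 TPM, and Ccnb2 at 65.6 and 56.5 TPM, 66.3 and 77.2 TPM, and 67.9 and 88.3 TPM. Ccnb1 was above Ccnb2 in 2 of the 6 libraries. Both were at similar levels in litter 2, whereas in litter 3 the control-labelled library had the highest Ccnb2 and the lowest Ccnb1 of the series.

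The mitotic kinases were at levels close to those of the cyclins. Plk1, the Polo kinase, was at 75.2 and 80.5 TPM in litter 1, 80.5 and 88.3 TPM in litter 2, and 84.5 and 94.2 TPM in litter 3, and was thus lower in the library labelled mutant of every litter. Aurka, the centrosomal Aurora kinase, was at 82.5 and 88.4 TPM, 81.7 and 89.5 TPM, and 69.5 and 87.0 TPM. The labelled groups did not overlap for Aurka. Aurkb, the kinase of the chromosomal passenger complex, was at 54.1 to 65.0 TPM.

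Of the kinetochore and checkpoint genes, Cenpe varied most, with a coefficient of variation of 12.8%, against 6.61% to 8.70% in the others. Cenpe, a kinetochore motor gene, was at 67.8 and 88.9 TPM in litter 1, 74.1 and 73.6 TPM in litter 2, and 70.4 and 91.5 TPM in litter 3. Its 2 highest libraries were those labelled control of litters 1 and 3, and litter 2 showed no such gap. Cenpf, another large kinetochore protein gene, was at 70.7 and 85.4 TPM, 79.0 and 81.3 TPM, and 75.4 and 81.6 TPM. The checkpoint kinases Bub1 and Bub1b were at 49.4 to 60.4 TPM and 60.6 to 77.2 TPM, and Cdc20, the activator of the anaphase-promoting complex, at 69.3 to 85.9 TPM.

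Of the proliferation markers, Mki67, the gene of the Ki-67 antigen, was at 287 and 337 TPM in litter 1, 282 and 293 TPM in litter 2, and 265 and 305 TPM in litter 3. Top2a, the topoisomerase that untangles replicated DNA, was at 244 and 290 TPM, 253 and 259 TPM, and 243 and 293 TPM. For both genes every library labelled control was above every library labelled mutant. Birc5, the survivin subunit of the chromosomal passenger complex, did not share this order, with 167 to 208 TPM and the lowest value in the control-labelled library of litter 3.

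The CDK inhibitors among the members were both at low levels. Cdkn1b, which encodes p27, was at 12.7 and 13.3 TPM in litter 1, 12.8 and 14.9 TPM in litter 2, and 13.7 and 12.7 TPM in litter 3. Cdkn2c, which encodes the CDK4 and CDK6 inhibitor p18, was at 1.14 and 1.79 TPM, 1.52 and 1.32 TPM, and 1.55 and 1.37 TPM, and its levels lie near the filter on low values. The more abundant inhibitor of the tissue was Cdkn1c, which encodes p57 and is no member, at 13.9 to 27.1 times the level of Cdkn1b.

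No member was called between the labelled groups. With limma on log2(TPM + 1), 0 of 40 passed an adjusted p of 0.05, as did 0 of all 12152 tested genes (background 0%), and the smallest adjusted p of a member was 0.719. Without adjustment, 3 of 40 members had a limma p under 0.05, against 6.72% of all tested genes. The differences were small and mostly below 0. Of the 40, 33 were lower in the mutant label, against 65.4% of all tested genes. This share depended on the scaling of the libraries. With median-of-ratios scaling 22 of 40 were below 0, and with quantile scaling 26 of 40. Over all tested genes the median difference was then 0.002 and -0.008. The median difference was -0.13 for the G2/M members and -0.04 for the G1/S and replication members, beside -0.06 for all tested genes, on the log2(TPM + 1) scale. In bulk tissue, fewer cycling cells and less of these transcripts per cycling cell cannot be told apart.

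The 3 members with the smallest p were Gins2, Cenpe and Top2a. Gins2 (chromosome 8, 120578633 to 120589304, GRCm38), a subunit of the replicative helicase, was at 25.2 and 34.3 TPM in litter 1, 28.6 and 30.2 TPM in litter 2, and 28.8 and 34.7 TPM in litter 3. Its labelled groups, 27.5 ± 2.06 and 33.1 ± 2.48 TPM (SD, n = 3 each), did not overlap, and the difference was -0.26 ± 0.10 in log2(TPM + 1) (SE; limma adjusted p = 0.719). Cenpe (chromosome 3, 135212537 to 135273611) had a difference of -0.25 ± 0.10 (SE; limma adjusted p = 0.719) and Top2a (chromosome 11, 98992943 to 99024189) one of -0.18 ± 0.08 (SE; limma adjusted p = 0.721). None of these 3 passed the adjustment over all tested genes.

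The labelled groups did not overlap for 8 members. Mki67, Top2a, Aurka, Cenpf, Cdc45 and Gins2 were lower in the libraries labelled mutant (6 of 40, against 10.4% of all tested genes), and Ccne1 and Cdc6 higher (2 of 40, against 2.73%). Both shares rest on few genes. Of the 40 members, 39 had a limma 95% interval that stayed within 0.5 units of 0 in log2(TPM + 1), which is near 1.41-fold for abundant genes only. Tyms was the exception, at -0.36 ± 0.16 (SE; limma adjusted p = 0.726). Cdkn2c is among the 39 (-0.48 to 0.37), but this scale understates changes of a gene at its level. The share of all tested genes with such an interval was not counted.

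In the comparison table that the authors deposited, in which Msx1 was negative at -5.19 ± 0.26 (log2, with its SE), no member was called either. Of 40 members, 0 were called at 0.05 after adjustment in the authors' deposited table, against 0.0961% of 14572 genes, and 0 had an unadjusted p under 0.05, against 1.85% of the 17605 genes with a p-value. The signs were mixed. Positive values in the authors' deposited table numbered 23 of 40, against 50.7% among all genes with an adjusted p. The median log2 fold change was 0.02 for the G2/M members and 0.01 for those of G1/S and replication, beside 0.003 for the tested genes of the table.

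The range of the members in the authors' deposited table ran from -0.34 for Cdkn2c to 0.27 for Ccnb2. Ccnb2 (chromosome 9, 70407692 to 70421547) had the smallest p of the members, at 0.27 ± 0.15 (log2, with its SE; unadjusted p = 0.0621 in the authors' deposited table). Ccnd2 followed at -0.15 ± 0.10 (unadjusted p = 0.132) and Ccnb1 at -0.16 ± 0.12 (unadjusted p = 0.199), both from the authors' deposited table, so that the 2 B-type cyclins had opposite signs. Key genes of both phases lay at 0 within error: Mki67 was at 0.01 ± 0.10, Top2a at 0.02 ± 0.10, Pcna at 0.05 ± 0.10, Cdk1 at 0.04 ± 0.14 and Ccnd1 at 0.02 ± 0.10 in the authors' deposited table.

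The standard errors of the authors' deposited table bound what could have been missed. Their median was 0.13 for the members and 0.24 for the tested genes of the table, so that the members' intervals are narrower whatever the size of change. A 95% interval from these standard errors (normal approximation) stayed within 0.5 log2 units of 0 for 36 of 40 members, against 31.3% of all genes with an adjusted p. The 4 others were Ccnb2 (-0.01 to 0.56), E2f1, Ccne2 and Cdkn2c, and the interval of Cdkn2c, from -2.07 to 1.38, leaves its direction and size undetermined.

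**Figure D2:**
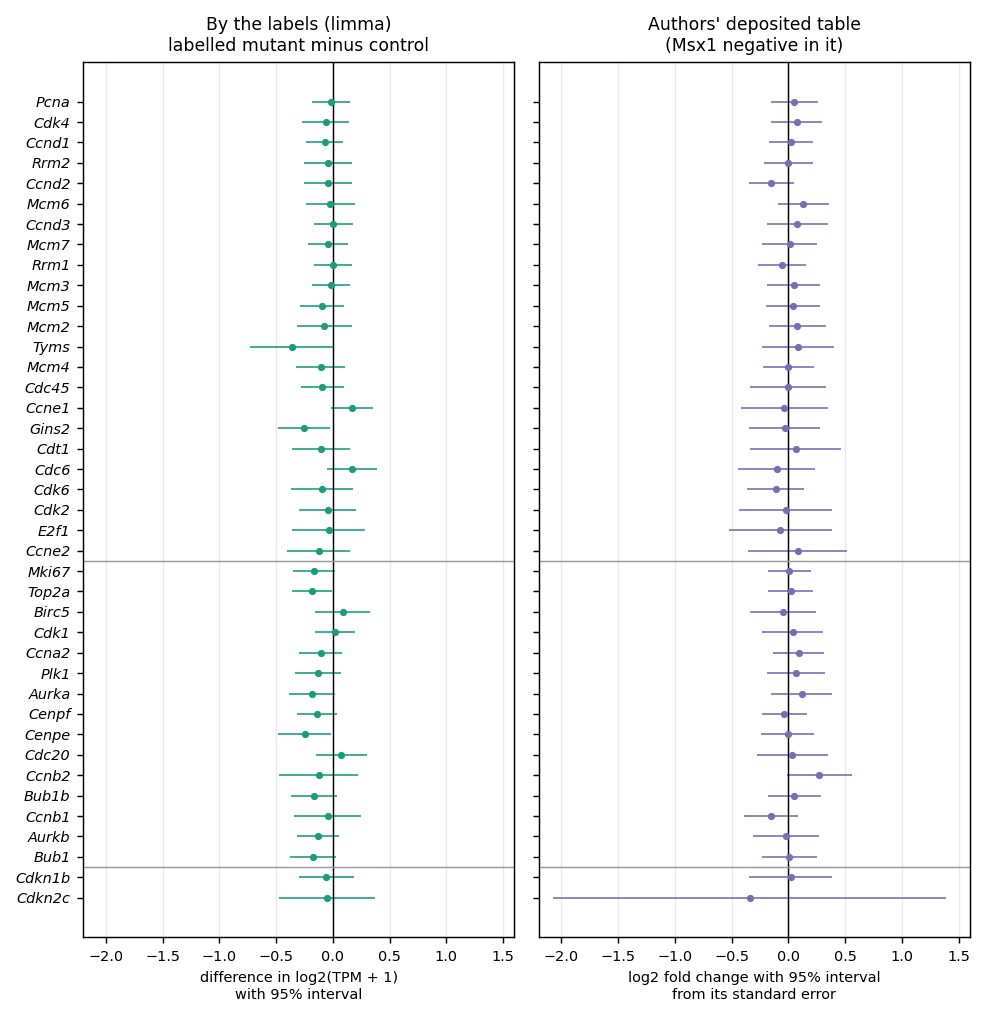
Differences of the 40 members (rows) by the labels, as limma difference in log2(TPM + 1) with its 95% interval (left), and in the authors' deposited table, as log2 fold change with a 95% interval from its standard error (right); both horizontal axes have the same range. Nearly all intervals stay within 0.5 log2 units of 0, 39 of 40 on the left and 36 of 40 on the right, and that of Cdkn2c is the widest on the right.

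Within litters, the members moved in opposite directions between litter 1 and litter 3. In litter 1 the library with low Msx1 was lower for 28 of 40 members, in litter 2 it was higher for 22, and in litter 3 it was higher for 28. The corresponding shares of all tested genes that were higher in the library with low Msx1 were 35.9%, 51.5% and 60.9%. In each litter the majority of tested genes thus lay on the same side as the majority of members, by little in litter 2. For the G2/M members the median log2 difference (low minus high Msx1) was -0.17 in litter 1, 0.04 in litter 2 and 0.20 in litter 3, and for those of G1/S and replication it was -0.07, 0.005 and 0.15. Over all tested genes the medians were -0.09, 0.007 and 0.08. With median-of-ratios scaling the G2/M medians became -0.06, 0.03 and 0.10, and those of G1/S and replication 0.03, -0.003 and 0.05, so that the latter changed sign in litters 1 and 2.

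**Figure D3:**
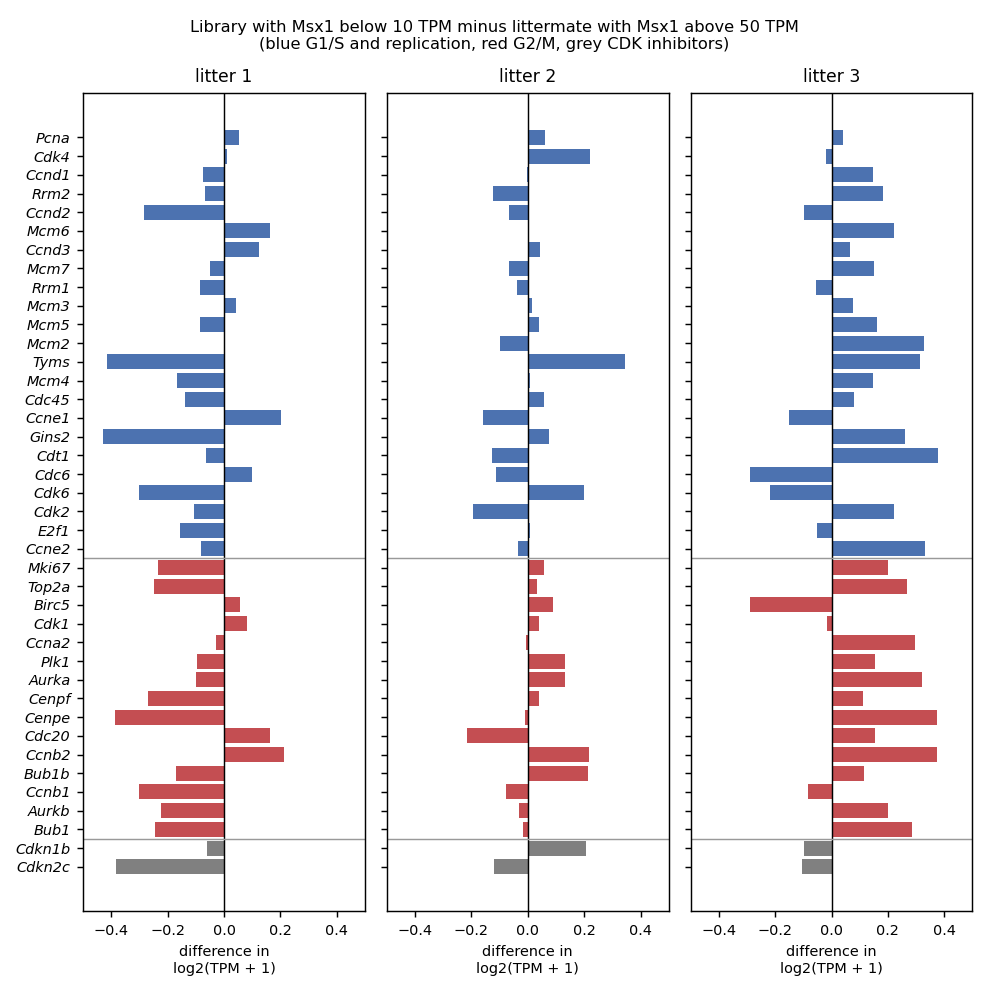
Difference in log2(TPM + 1) of each of the 40 members (rows) between the library with Msx1 below 10 TPM and its littermate with Msx1 above 50 TPM, 1 panel per litter; blue bars are G1/S and replication genes, red bars G2/M genes and grey bars CDK inhibitors. Most red bars point left in litter 1 (11 of 15) and right in litter 3 (12 of 15), with medians of -0.17 and 0.20.

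Few members kept 1 direction in all 3 litters. Ccnb2, Ccnd3, Mcm3, Mcm6 and Pcna were higher in the library with low Msx1 in each litter (5 of 40, against 1314 of 12152 tested genes), and Ccnb1, Ccnd2, Rrm1 and Cdkn2c lower (4 of 40, against 11.9%). Over all tested genes 22.7% kept 1 direction, and the members are near that share. With median-of-ratios scaling the counts were 4 and 4, but of other genes in part. Ccnb2, Ccnb1, Ccnd2 and Cdkn2c kept their direction with median-of-ratios scaling and with mitochondrial and globin genes left out. Ccnd3, Mcm3, Mcm6, Pcna and Rrm1 each changed sign in 1 litter with median-of-ratios scaling. As deposited, the differences for Ccnb2 were 0.21, 0.22 and 0.37 log2 units in litters 1, 2 and 3, and for Mcm6 they were 0.16, 0.005 and 0.22. Those of Pcna were at most 0.06 and those of Mcm3 at most 0.08. Ccnd3, the D-type cyclin with the lowest mean, differed by 0.13, 0.04 and 0.07. Among the lower genes, Ccnb1 differed by -0.30, -0.08 and -0.08, Ccnd2 by -0.28, -0.07 and -0.10, and Rrm1 by no more than 0.09 in size.

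Single libraries held many of the lowest and highest values. Of the 40 members, 12 were lowest in the mutant-labelled library of litter 1 and 11 in that of litter 3, against 22.3% and 20.2% of all tested genes. As many as 20 were highest in the control-labelled library of litter 3, against 30% of all tested genes, and 0 in its mutant-labelled littermate, against 11.5%. The mean log2(TPM + 1) of the G2/M members under the mutant and control labels was 6.49 and 6.61, then 6.60 and 6.64, then 6.51 and 6.67 for litters 1, 2 and 3. For G1/S and replication members it was 5.90 and 5.98, 5.97 and 5.97, and 5.89 and 5.98. The balance of the phases, G2/M minus G1/S, ran from 0.59 to 0.69 log2 units over the 6 libraries, and was 0.59 and 0.63, 0.63 and 0.67, and 0.62 and 0.69 in the same order. In each litter it was higher in the library labelled control, by less than 0.1 log2 units.

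In litter 1 the differences of the members also went with transcript length. Across the 40 members, Spearman's rho between the longest coding transcript (GENCODE M21) and the difference, low minus high Msx1, was -0.40 in litter 1, 0.11 in litter 2 and -0.13 in litter 3, and across 12123 tested genes it was -0.21, -0.02 and 0.07. The control-labelled library of litter 1 gave the largest of these values against the mean of the 6 libraries, at 0.43 over the members and 0.21 over the tested genes; it is also the library with the highest mitochondrial share. These correlations run across genes of the same libraries and are given as a description. Cenpf, Mki67, Cenpe and Cdk6, whose longest coding transcripts have 11130, 10061, 7910 and 11525 bases, were at -0.27, -0.24, -0.39 and -0.30 in litter 1, while Ccnb2 and Pcna, with 1531 and 1518 bases, were at 0.21 and 0.05. Other members did not follow length: Gins2 and Tyms, with 3900 and 3163 bases, had the lowest values of litter 1, -0.43 and -0.42, and Mcm6 and Cdc6, with 4355 and 4614 bases, were at 0.16 and 0.10. The part of transcript length, of red blood cell RNA and of the mitochondrial share in the litter 1 differences was not tested. With mitochondrial and globin genes left out of the total, the G2/M median in litter 1 was -0.21.

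**Figure D4:**
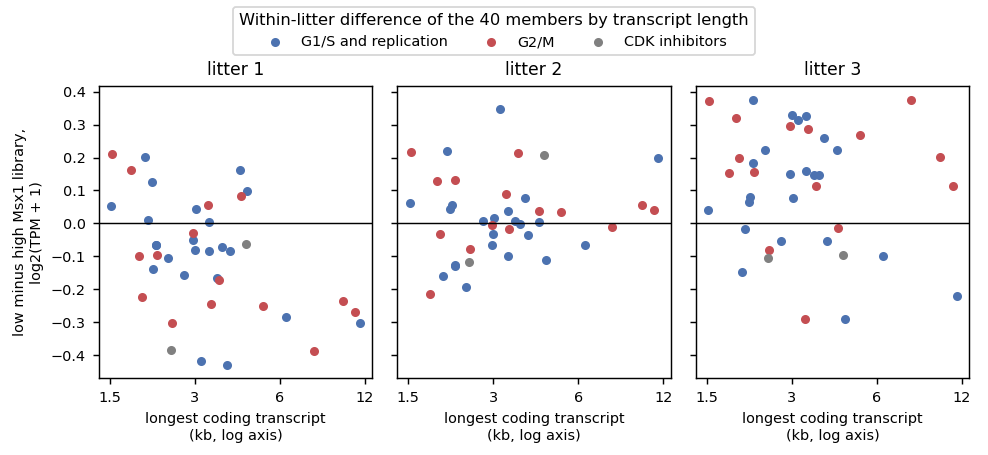
Difference in log2(TPM + 1) between the library with low Msx1 and its littermate (vertical axis) against the longest coding transcript in kb (horizontal log axis) for the 40 members, 1 panel per litter, with colours for the gene groups. In litter 1 the longer transcripts lie lower (Spearman's rho = -0.40), whereas litters 2 and 3 show values of 0.11 and -0.13.

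By median the members varied together weakly, and not clearly more within a phase than across the phases. Over the 6 libraries, the median Pearson r of log2(TPM + 1) was 0.30 for the 105 pairs of G2/M members, 0.10 for the 253 pairs of G1/S and replication members and 0.28 for the 345 pairs across the groups, beside 0.05 for all pairs of tested genes. Among pairs of G2/M members, Top2a and Cenpe gave r = 0.99 and Aurkb and Cenpe r = 0.95, all over 6 libraries and as a description. Both pairs share the high values of the control-labelled libraries of litters 1 and 3. The most negative pair, Ccnd3 and Rrm1, gave r = -0.996. These pairs were picked after their values were seen, and all pairs share the libraries and their scaling.

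Other genes of the pathway were read from 3 lists of genes that are no members. Of 46 other replication genes, such as polymerase, origin and clamp loader subunits, 0 were called by the labels and 0 in the authors' deposited table, where 23 were positive and 23 negative, with a median log2 fold change of 0.005. Of 60 other mitosis genes, 0 were called by the labels and 0 in the authors' deposited table, with 32 positive, 28 negative and a median of 0.002. By the labels 49 of the 60 were below 0, against 65.4% of all tested genes, and this count was not made under other scalings. Of the 60, 5 had an unadjusted limma p under 0.05, against the background of 6.72%. In the list of RB, E2F and CDK inhibitor genes, 20 of 22 were tested and 0 called in either comparison; Cdkn2a, at 0 in every library, and Cdkn2b, at no more than 0.27 TPM, were not.

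The smallest p of these lists in the authors' deposited table belonged to Cdkn1c, which encodes the CDK inhibitor p57. Cdkn1c was at 240.0 and 206 TPM in litter 1, 177 and 241 TPM in litter 2, and 233 and 344 TPM in litter 3. In each litter the library with low Msx1 was the higher, by 0.22, 0.44 and 0.56 log2 units. Of the 12152 tested genes, 1314 were likewise higher in all 3 litters. The authors' deposited table put Cdkn1c at 0.41 ± 0.12 (log2, with its SE; unadjusted p = 0.000778, adjusted p = 0.373), so that it did not pass. Because Cdkn1c was picked by its p in that table, the shared direction of the litters is not read as a separate result. By the labels its difference was -0.26 ± 0.20 (SE; limma adjusted p = 0.772), and it ran from -0.42 without the control-labelled library of litter 1 to -0.05 without that of litter 3. In the replication list the smallest p belonged to Cdc7, an origin-firing kinase gene, Clspn and Gins3, at 0.31 ± 0.18, 0.20 ± 0.13 and -0.35 ± 0.27, and in the mitosis list to Incenp, a passenger complex subunit gene, Cenpi and Zwilch, at 0.20 ± 0.12, 0.30 ± 0.25 and -0.21 ± 0.19 in the authors' deposited table, all with unadjusted p of 0.0874 or more. Cdkn1a, the p53-induced inhibitor gene of p21, and Mycn were at -0.39 ± 0.25 and 0.18 ± 0.17 in the same table.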

How the data were processed

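RNA was sequenced from 6 distal mandibles (polyadenylated RNA), 3 under each label. Per the file headers the authors deposited 1 TPM value per gene and library, and 1 comparison table with the base mean (a signal), a log2 fold change with standard error, the Wald score, and p-values before and after adjustment. Salmon 1.5.2, DESeq2 and mm10 are named, per the submitters' processing notes. The table's direction is not given in the sources used here. TPM keep no depth, so no counting interval is given.

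The 40 members and the gene lists were chosen with earlier results of these data known. Genes at 1 TPM in at least 3 of 6 libraries (12152) were fitted with limma 3.58.1 (R 4.3.3; trend, robust) on log2(TPM + 1), which understates changes of low genes, with Benjamini-Hochberg adjustment over all of them. The fit was tested on simulated data. Medians and counts over members carry no test. Named genes were those with the highest means of each class, the smallest p in each comparison, 1 direction in all litters, and the extremes of the coefficient of variation; members whose labelled groups did not overlap, and extreme pairs, were added after their values were seen. The design text places 1 embryo of each label in each litter, which pairs the samples, although deviations from the label means correlated at -0.0545, -0.0279 and -0.0257 within litters. Promoters came from RefSeq (GRCm38.p6) and gene coordinates from GENCODE M21 (GRCm38), the build of mm10.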

Additional observations from a re-analysis of the deposited data

How the results depend on the processing

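No member was called by the labels under any alternative run: litter as a replicate block (paired fit, 0 members), a pseudocount of 0.1, no filter or a mean of at least 5 TPM, median-of-ratios or quantile scaling, mitochondrial and globin genes left out, and each library left out in turn (0 to 0 members). Over all genes, leaving out each library gave 0 to 1 call (1 without the mutant-labelled and 1 without the control-labelled library of litter 1). Members at an unadjusted p under 0.05 numbered 3 in the fit reported, 1 with the replicate block and 0 to 4 when a library was left out, of which 0 came without the mutant-labelled library of litter 1 and 1 without the control-labelled library of litter 1 or either library of litter 3. The count of members below 0 was 29 to 33 over the left-out libraries, 26 with quantile and 22 with median-of-ratios scaling. The G2/M median by the labels stayed below 0 (-0.17 to -0.11 over the left-out libraries, -0.06 with median-of-ratios scaling). That of G1/S and replication was -0.08 to -0.03 over the left-out libraries and 0.02 with median-of-ratios scaling. Within litters the alternatives were a pseudocount of 0.1, median-of-ratios scaling, and mitochondrial and globin genes left out, and quantile scaling was not run. Under these, members higher in the library with low Msx1 in all litters numbered 4 or 5 and those lower 4. Only 4 of the 9 kept their direction under both of these scalings. At an adjusted p of 0.1, too, 0 members passed in the authors' deposited table. The precision rests on 3 embryos a label and an unknown depth, and it differs between members, as the width of each interval shows.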
